A study of Mus musculus with 4 samples.

Results

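Undifferentiated spermatogonia (Aundiff) were examined in single-cell RNA-seq libraries of mouse testis at postnatal day 14. The cells were chosen by their own counts. A barcode was taken as Aundiff when it had 1000 to 4500 detected genes, at least 2 unique molecular identifiers (UMIs, single captured RNA molecules) of *Ddx4* plus *Dazl*, at most 1 UMI of *Stra8*, and at least 3 of the 7 genes *Zbtb16*, *Egr4*, *Trim71*, *Lin28a*, *Sall4*, *Gfra1* and *Foxf1* detected. *Ddx4* (an RNA helicase) and *Dazl* (an RNA-binding protein) mark germ cells, and *Stra8* is a retinoic acid (RA)-induced gene of differentiation and meiotic entry. This rule gave 714 Aundiff among 10420 germ cells, 22567 cells within the limits of detected genes and 46001 barcodes in all.

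Aundiff are the mitotic germ cells on the basement membrane of the seminiferous tubule (ST), and a few of them act as spermatogonial stem cells. The stem cell fraction responds to glial cell line-derived neurotrophic factor (GDNF), which binds GFRA1 and signals through the receptor tyrosine kinase RET to keep genes such as *Etv5*, *Bcl6b* and *Lhx1* active. Cells that leave this state turn on *Neurog3*, *Sox3* and *Rarg*, and RA then drives the change to KIT-positive differentiating spermatogonia. At the end of each tubule, the Sertoli valve (SV) next to the rete testis (RT) is known as a place where Aundiff gather.

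The study compared *Sox17*-cKO mice, which lack SOX17 of the RT epithelium, with control mice. Each of the 4 libraries, 2 of control and 2 of *Sox17*-cKO mice, was made from the testes of 3 pups, in which the RT and the tubules next to it were dissociated together. The 10x Genomics 3' chemistry was loaded for 5000 cells per library. All animals were C57BL/6 mice, the *Sox17*-cKO animals carried SF1Cre:Sox17flox/flox, and the control animals are labelled SF1Cre, whereas the methods name *Sox17*flox/flox littermates as controls. Therefore, whether the control pups carried the Cre transgene or the floxed alleles is not settled here. The Cre is driven by sequences of *Nr5a1* (SF1), a gene of gonadal somatic cells, so that germ cells are not its target. *Sox17* itself had 2 UMIs in the 714 Aundiff, both in control 1. The pups are pooled, so a library is 1 replicate and single animals cannot be told apart.

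The Aundiff were spread unevenly over the libraries, with 361 and 48 in control 1 and 2 and 201 and 104 in *Sox17*-cKO 1 and 2. They carried 4157778, 565857, 1984390 and 1163315 UMIs, so that a single UMI was worth between 0.241 and 1.77 CPM (the UMIs of a gene for every 1000000 UMIs of the summed Aundiff of a library). The median Aundiff held 10718 to 12856 UMIs, against 5915 to 8820 for the median germ cell outside the rule. The median share of mitochondrial UMIs ranged from 8.14% to 9.38%, and 472 of the 714 cells were below 10%. Any pair of libraries shared 20 to 43 barcodes over all cells and 0 among Aundiff. The number of Aundiff also rested on the upper limit of detected genes. A further 935 cells met every marker condition but had more than 4500 detected genes, which was 43.0% of all such cells and 82.6% in control 1 and 2 and 53.7% and 62.4% in *Sox17*-cKO 1 and 2. Each comparison was therefore also made in these larger cells, an alternative chosen after seeing the data.

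The number of cells did not fall steadily with the number of rule genes detected. Of the germ cells with at most 1 *Stra8* UMI, 1342 had a single one of the 7 genes detected, 366 had 2, 165 had 3, 142 had 4, 179 had 5, 191 had 6 and 37 had all 7. A further 5011 had none. Most of these germ cells thus had no rule gene or 1, and the counts fell to a low point at 4 genes and rose again at 5 and 6, although in *Sox17*-cKO 1 and 2 the cells with 4 and with 5 genes were equal in number (46 each and 21 each). In the cells over 4500 genes the same low point was at 4 genes with 81 cells, and 467 cells had 6. There, *Sox17*-cKO 1 had fewer cells with 3 genes (20) than with 4 (28). These values describe the genes that chose the cells and carry no test.

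**Figure D1:**
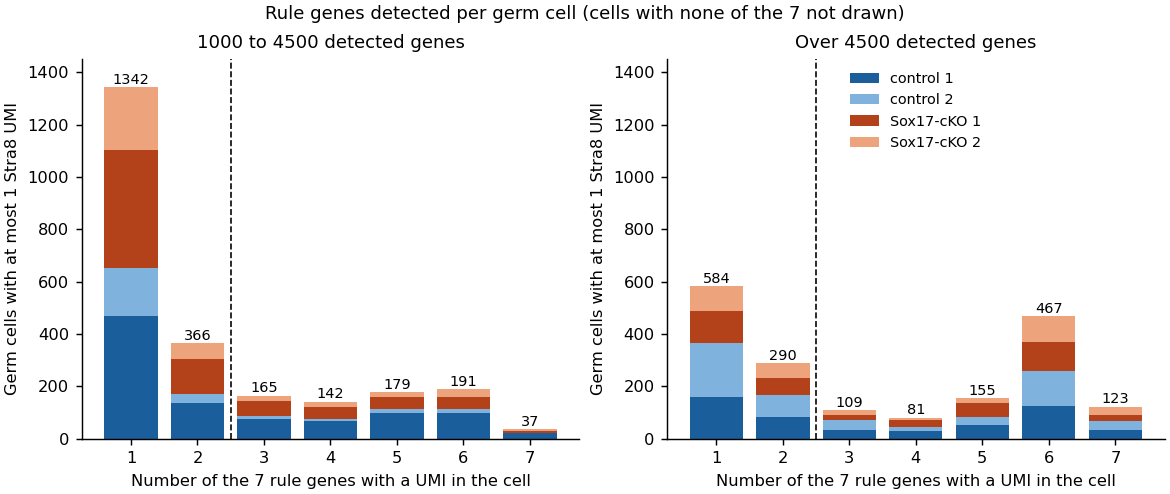
Number of germ cells with at most 1 *Stra8* UMI (y axis) by how many of the 7 rule genes were detected (x axis), with germ cells of 1000 to 4500 detected genes and larger germ cells drawn separately. Cells with none of the 7 genes (5011 and 1138) are not drawn. From 1 to 6 genes both counts were lowest at 4, with 142 and 81 cells, and rose again to 191 and 467 cells at 6, before 37 and 123 cells at 7.

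Among the rule genes, *Egr4*, an early growth response transcription factor, had the highest mean in Aundiff, at 277 ± 25.7 CPM (mean ± SD, n = 4 libraries). In *Sox17*-cKO 1, however, *Trim71* was higher, at 260 CPM against 254 CPM of *Egr4*. *Trim71* (a regulator of mRNA stability) stood at 243 ± 17.6 CPM, *Zbtb16* (PLZF, a transcription factor of stem cell maintenance) at 214 ± 12.1, *Sall4* (a zinc finger transcription factor) at 149 ± 20.7, *Lin28a* (an RNA-binding protein that blocks let-7 maturation) at 101 ± 12.5 and *Foxf1* (a forkhead factor) at 96.6 ± 17.3. *Gfra1* was the lowest of the 7, at 53.4 and 58.3 CPM in control 1 and 2 and 45.4 and 55.0 CPM in *Sox17*-cKO 1 and 2. *Gfra1* was detected in 31.5% of the Aundiff. When each cell was thinned to 3000 UMIs, that share was 14.7%. An Aundiff without a *Gfra1* UMI may therefore still express the gene below what this depth can show. At most 0.427% of thinned cells gated on Sertoli genes and 0.441% of those gated on collagen genes had a *Gfra1* UMI. Both gates held only barcodes without a *Ddx4* or *Dazl* UMI, so these shares may understate free RNA of germ cells.

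Genes that the rule did not use are described next. *Ret* stood at 54.1 and 86.6 CPM in the control libraries and at 70.6 and 54.2 CPM in the *Sox17*-cKO libraries. In germ cells outside the rule that had a *Kit* UMI and at most 1 *Stra8* UMI, *Ret* was at 1.08 ± 0.538 CPM, and in cells gated on Sertoli genes at 0.974 ± 0.688 CPM (mean ± SD, n = 4 libraries each). *Nanos3*, an RNA-binding protein of the germ line, followed the same pattern, with 63.5 ± 5.39 CPM in Aundiff against 1.69 ± 0.567 CPM in the *Kit*-detected germ cells. Likewise, *Upp1* (uridine phosphorylase) was at 49.7 ± 14.2 against 0.997 ± 1.18 CPM, *Piwil4* (a PIWI protein of transposon silencing) at 24.4 ± 4.40 against 2.25 ± 1.14 CPM, and *Neurog3* at 17.8 ± 2.79 against 0.815 ± 0.539 CPM. In each of these 5 genes, the lowest Aundiff library lay above the highest library of the *Kit*-detected cells. As the rule and these genes come from the same cells, the values are a description.

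Markers that other cells share were less distinct. *Uchl1* (PGP9.5, a ubiquitin hydrolase) was the highest of the progenitor genes in Aundiff at 918, 1241, 884 and 1189.7 CPM in control 1 and 2 and *Sox17*-cKO 1 and 2. However, it also stood at 565 ± 118 CPM in *Kit*-detected germ cells and 483 ± 108 CPM in the Sertoli gate. *Id4*, an inhibitor of DNA binding often used to mark stem cells, was at 60.3 ± 10.8 CPM in Aundiff, and its thinned detection of 8.33% to 13.7% over the libraries overlapped the 7.39% to 11.7% of the Sertoli gate. *Epcam*, a surface adhesion molecule, was at 141 ± 32.2 CPM, *Cdh1* (E-cadherin) at only 6.89 ± 3.01 CPM, and *Itga6* (an integrin) at 55.1 ± 8.86 CPM, which was below the 128 ± 37.0 CPM of the Sertoli gate.

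The genes of the most primitive Aundiff were rare. *Lhx1* had 119 UMIs in all Aundiff, *Eomes* 60, *Nanos2* (an RNA-binding repressor of differentiation) 43, *Pax7* 27 and *T* 19. *Nanos2* stood at 5.29 and 12.4 CPM in control 1 and 2 and 1.51 and 9.46 CPM in *Sox17*-cKO 1 and 2, which in *Sox17*-cKO 1 is worth 3 UMIs. None of these 5 genes had a UMI in any thinned cell of the Sertoli or the collagen gate, which held only barcodes without *Ddx4* or *Dazl* UMIs.

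*Kit*, *Mki67* and *Sycp3* were lower in Aundiff than in germ cells with 2 or more *Stra8* UMIs. *Kit*, the stem cell factor receptor, was at 28.6, 38.9, 47.4 and 34.4 CPM in the Aundiff of control 1 and 2 and *Sox17*-cKO 1 and 2. Those *Stra8*-high germ cells held 118 ± 47.1 CPM of *Kit*. *Mki67*, a marker of cycling cells, was at 62.9 ± 19.9 CPM in Aundiff against 341 ± 117 CPM in *Kit*-detected and 195 ± 63.8 CPM in *Stra8*-high germ cells. *Sycp3*, a component of the synaptonemal complex, was at 250 ± 31.5 CPM against 1114 ± 284 CPM in *Stra8*-high germ cells. *Sohlh1*, a transcription factor that starts in Aundiff and is needed for differentiation, was at 291 ± 70.4 CPM against 130 ± 36.7 CPM in *Kit*-detected germ cells. Cells with 2 or more *Stra8* UMIs and every other Aundiff condition held 255, 432, 258 and 443 CPM in control 1 and 2 and *Sox17*-cKO 1 and 2. Aundiff were below them in each library, at 247, 361, 216 and 340 CPM of *Sohlh1*.

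**Figure D2:**
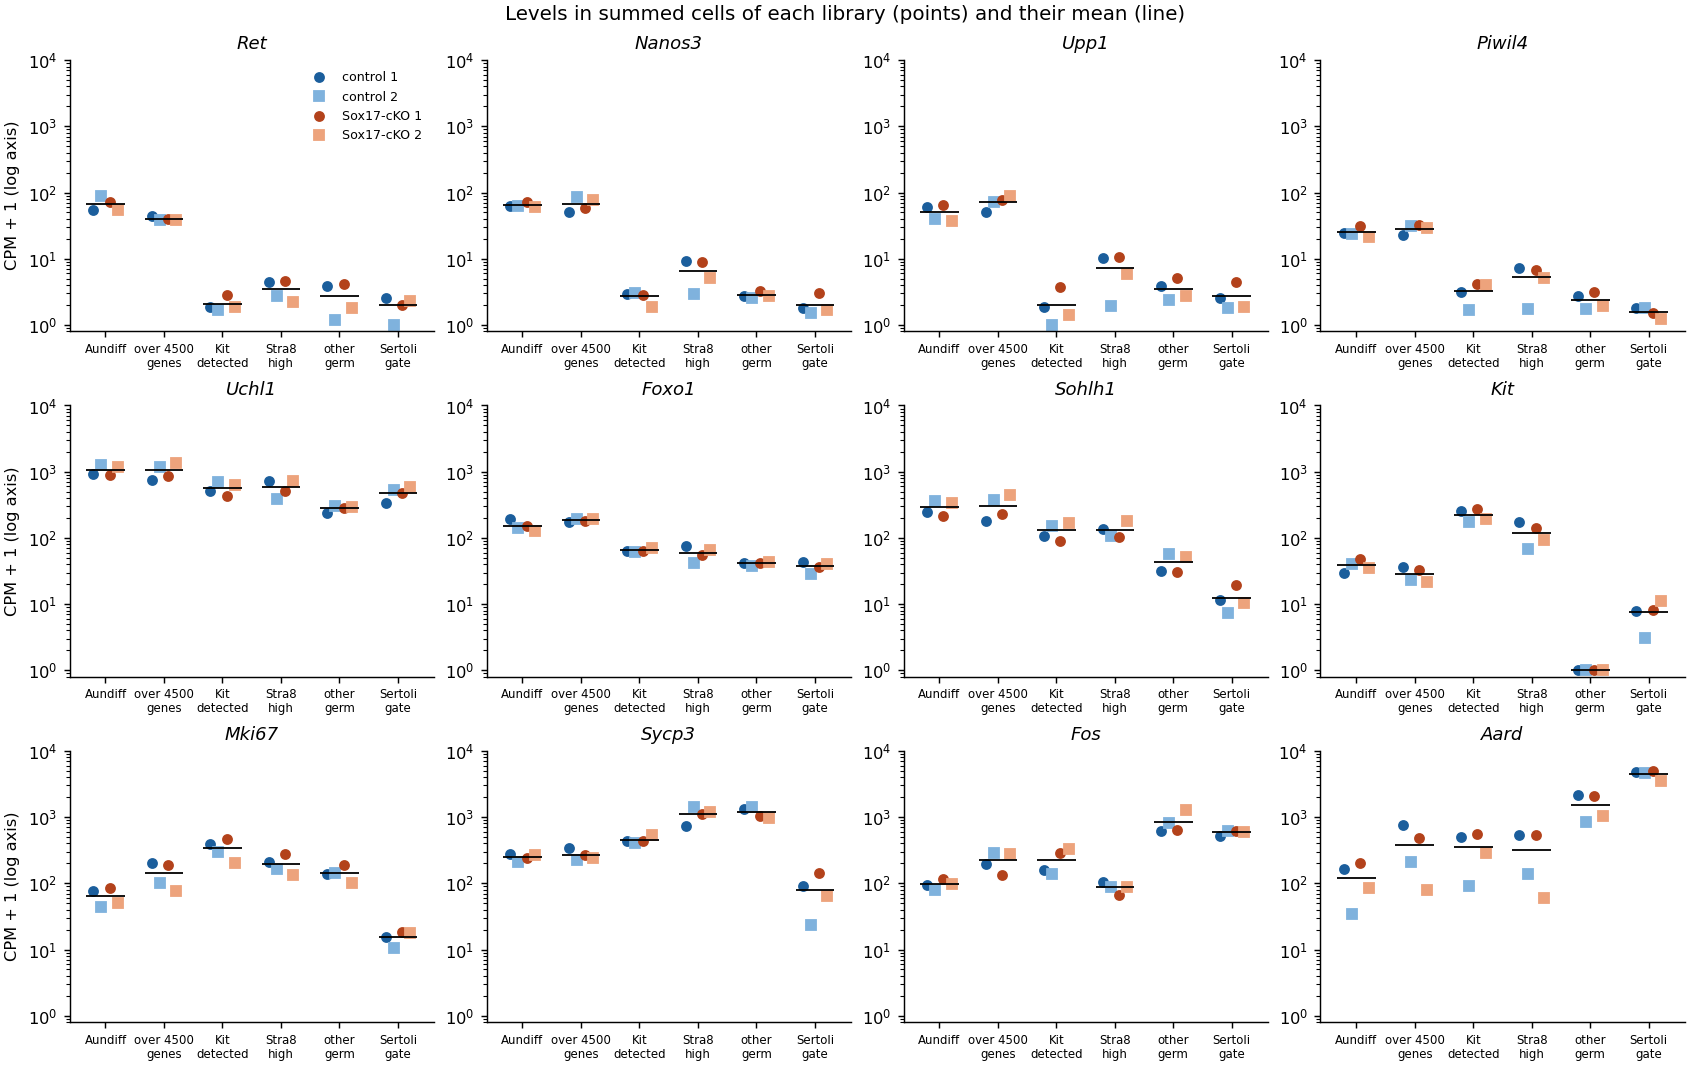
Level of 12 genes as CPM + 1 (y axis, log scale) in Aundiff, the larger cells with the same markers, germ cells with *Kit* detected, with 2 or more *Stra8* UMIs and with neither, and the Sertoli gate (x axis). Points are the 4 libraries and lines their mean. *Ret*, *Nanos3* and *Upp1* averaged 49.7 to 66.4 CPM in Aundiff and 0.997 to 1.69 CPM in *Kit*-detected germ cells, whereas *Mki67* averaged 62.9 CPM in Aundiff, 341 CPM in *Kit*-detected and 195 CPM in *Stra8*-high germ cells. The *Kit* level of the *Kit*-detected cells follows from their choice.

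The cells just inside and just outside the limits of the rule are given as pooled levels. The 165 cells with exactly 3 of the 7 genes had pooled levels of 31.3 CPM of *Ret* and 125 CPM of *Kit*. The 366 cells with 2 of the 7 genes, just outside, had 10.2 CPM of *Ret* and 172 CPM of *Kit*, and the 407 cells with 5 or more had 69.3 CPM of *Ret* and 12.8 CPM of *Kit*. *Ret* was lower just outside than just inside in each of the 4 libraries. *Kit* was not uniformly higher outside, as control 2 had 137 CPM just inside and 79.5 CPM just outside and *Sox17*-cKO 1 had 192 and 188 CPM. The 178 Aundiff with 1 *Stra8* UMI had 53.3 CPM of *Ret* and 65.5 CPM of *Kit*, against 30.7 and 127 CPM in the 80 cells with 2 *Stra8* UMIs. In single libraries the order could turn, as *Ret* was at 34.9 and 60.9 CPM in control 2 and at 16.4 and 25.1 CPM in *Sox17*-cKO 2, and *Kit* at 198 and 60.9 CPM in control 2, with 8 and 5 cells there. At the limit of detected genes, the 67 Aundiff within 100 genes below it had 61.0 CPM of *Ret* and 30.0 CPM of *Kit*, and the 60 cells within 100 genes above it 47.6 and 31.7 CPM. No test was made on these values.

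UMIs of receptor genes for several growth factors known in the SV and RT were counted in Aundiff, and of the 6 genes named here *Igf1r* alone was detected more often than in both somatic gates in each of the 4 libraries. The highest of 26 receptor genes was *Igf1r*, the receptor of insulin-like growth factor 1, at 147 and 198 CPM in control 1 and 2 and 162 and 223 CPM in *Sox17*-cKO 1 and 2. The WNT receptor gene *Fzd3* was at 72.8 ± 13.02 CPM, the bone morphogenetic protein receptor gene *Bmpr1a* at 65.0 ± 15.0, the WNT co-receptor gene *Lrp6* at 48.9 ± 21.4, *Fgfr1* at 34.4 ± 3.66 and *Tgfbr1* at 32.0 ± 6.45 CPM. *Fgfr1* was thus the highest FGF receptor gene, as *Fgfr2* and *Fgfr3* had only 24 and 23 UMIs in all Aundiff. UMIs of 3' ends do not scale with transcript length, although capture can still differ between genes. Thinned detection of *Igf1r* was 34.1% in Aundiff against 29.6% in the collagen gate of control 1, 50% against 31.5% in control 2, 36.5% against 26.5% in *Sox17*-cKO 1, and 47.5% against 36.0% in *Sox17*-cKO 2, whereas that of *Fgfr1* (11.8% to 17.8% over the Aundiff libraries) lay below the 34.2% to 39.1% of the collagen gate. Over the Aundiff libraries, thinned detection of *Fzd3* was 19.8% to 22.3%, against up to 20.8% in the Sertoli gate, and that of *Bmpr1a* was 12.2% to 26.7%, of *Lrp6* 8.33% to 21.3% and of *Tgfbr1* 6.76% to 11.7%, against up to 34.8%, 23.6% and 14.4% in the collagen gate. For these 5 genes, free RNA of the somatic cells was therefore not set apart from expression in Aundiff. Of the RA pathway, *Rara* was at 36.3 ± 9.16 CPM, with thinned detection of 6.60% to 16.8% against 20.9% to 26.6% in the Sertoli gate, and *Rarg* at 21.1 ± 4.05 CPM, and the RA-degrading enzyme gene *Cyp26a1* had 12 UMIs in all Aundiff.

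RNA of somatic cells was present, at levels that differed between gene lists and libraries. The 9 Sertoli markers summed to 587 and 118 CPM in control 1 and 2 and 559 and 377 CPM in *Sox17*-cKO 1 and 2, carried mostly by *Aard*, *Clu* and *Cst12*, while the Sertoli hormone gene *Amh* had 11 UMIs. In control 1, *Clu*, *Aard* and *Cst12* stood at 171, 163 and 142 CPM, beside 163 CPM of the rule gene *Sall4*. In control 2 they stood at 31.8, 33.6 and 15.9 CPM, beside 118 CPM of *Sall4*. The 8 interstitial and peritubular markers summed to 164, 371, 161 and 400 CPM in the same order. The first list was thus highest in both libraries numbered 1, and the second in both libraries numbered 2. Leydig, macrophage, endothelial and RT markers summed to at most 12.03 CPM in any library, with *Insl3* and *Krt8* at 0 UMIs.

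The first split of the Aundiff was by *Gfra1*, the receptor gene that defines the GDNF-responsive cells. To give both sides the same entry, only cells with at least 3 of the other 6 rule genes were used, which left 199 *Gfra1*-detected and 489 *Gfra1*-undetected cells, with 103 and 242 from control 1, 17 and 30 from control 2, 44 and 150 from *Sox17*-cKO 1, and 35 and 67 from *Sox17*-cKO 2. UMIs were summed per library and side, and tested by edgeR's quasi-likelihood test with the library as a block. Of 7076 genes, 481 (6.8%) were higher and 346 (4.89%) lower in *Gfra1*-detected Aundiff after Benjamini-Hochberg adjustment, while DESeq2 called 241 genes. The median mitochondrial share was 7.98% in *Gfra1*-detected against 9.07% in *Gfra1*-undetected cells of control 1, 10.8% against 9.22% in control 2, 6.34% against 8.87% in *Sox17*-cKO 1, and 8.04% against 9.81% in *Sox17*-cKO 2. Below 10% mitochondrial UMIs 571 genes were called, 489 of them among the 827. Detection depends on depth. The median UMIs of *Gfra1*-detected and *Gfra1*-undetected cells were 11581 and 12202 in control 1, 14983 and 11995 in control 2, 11242 and 10590 in *Sox17*-cKO 1, and 12467 and 11723 in *Sox17*-cKO 2, so that the detected side was deeper in 3 of 4 libraries. The part of depth in the split was not tested beyond the thinned cells given further on.

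*Ccnd2* (chromosome 6, 127125162 to 127152193, minus strand of GRCm38), which encodes the G1 cyclin D2 and lies downstream of GDNF, showed the clearest difference. It stood at 580 CPM in *Gfra1*-detected and 175 CPM in *Gfra1*-undetected Aundiff of control 1, 790 and 239 in control 2, 668 and 122 in *Sox17*-cKO 1, and 989 and 301 in *Sox17*-cKO 2. All 4 libraries showed the same direction without overlap, with a log2 fold change of 1.85 ± 0.102 (SE, adjusted p = 7.8e-14). The others of the 8 leading genes were *Rasgrp2* (a guanine nucleotide exchange factor; log2 fold change 1.82), *Mcam* (CD146, an adhesion molecule; 1.69), *Tagln2* (an actin-binding protein; 1.45), *Nefm* (neurofilament; 2.68), *Rest* (a transcriptional repressor; 1.085), *Tcl1* (an AKT co-activator; 2.28) and *Chd4* (a chromatin remodeller; 1.04), each higher in *Gfra1*-detected cells of all 4 libraries.

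Genes of the GDNF response were higher on the *Gfra1*-detected side. Of 20 genes in the list of stem cell and GDNF response, 12 passed the filter on low counts. Of these, 11 were higher (6.8% over all genes) and 1 was lower (4.89% over all genes). Their median log2 fold change was 1.80 against 0.00 over all 7076 genes. *Ret*, the signalling partner of GFRA1, was at 93.9 and 36.4 CPM in *Gfra1*-detected and *Gfra1*-undetected Aundiff of control 1, 165 and 27.6 in control 2, 170 and 37.1 in *Sox17*-cKO 1, and 95.8 and 26.8 in *Sox17*-cKO 2 (log2 fold change 1.75 ± 0.163, adjusted p = 6.7e-09). *Etv5*, an ETS factor induced by GDNF and FGF, was at 60.4 against 15.5, 84.8 against 18.4, 76.3 against 9.62, and 136 against 46.6 CPM in the same order of libraries. Both genes were thus higher in the *Gfra1*-detected side of every library, and the ranges of the sides did not overlap.

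Other genes of the list changed by more or by less than *Ret* and *Etv5*. *Lhx1* rose by 3.54 ± 0.370 on the log2 scale, from 2.47, 0, 0.687 and 12.7 CPM in *Gfra1*-undetected cells to 31.9, 49.1, 46.6 and 60.1 CPM in *Gfra1*-detected cells of control 1 and 2 and *Sox17*-cKO 1 and 2. *Foxc2*, a forkhead factor of primitive spermatogonia, rose by 2.45 ± 0.221, and *Dusp6*, a feedback phosphatase of ERK signalling, by 2.12 ± 0.205. *Egr2* (1.99), *Bcl6b* (1.72), *Id4* (1.45), *Tspan8* (0.95) and *Pou3f1* (0.73) were higher as well. Only *Mycn*, a MYC family gene, was lower (log2 fold change -0.74 ± 0.228, adjusted p = 0.031 by edgeR's quasi-likelihood test). *Nanos2*, *Eomes*, *Pax7* and *T* did not pass the filter and were not tested.

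More progenitor genes were lower than higher on the *Gfra1*-detected side. Of 20 genes in the list, 17 were tested, 2 were higher (6.8% over all genes) and 9 lower (4.89% over all genes), with a median log2 fold change of -0.49. *Sox3*, an X-linked transcription factor of committed progenitors, was at 54.5 CPM in *Gfra1*-detected against 131 in *Gfra1*-undetected cells of control 1, 53.6 against 123 in control 2, 38.1 against 133 in *Sox17*-cKO 1, and 80.2 against 167 in *Sox17*-cKO 2. *Neurog3*, a basic helix-loop-helix factor of the same state, was at 6.71 against 27.2, 0 against 33.8, 4.24 against 18.6, and 2.23 against 25.4 CPM. *Rarg*, the RA receptor that makes progenitors responsive, had a log2 fold change of -2.38 ± 0.372, *Upp1* of -1.45 ± 0.230, and *Sall1* of -0.83. Smaller decreases were found for *Uchl1* (-0.39), *Dmrt1* (-0.49), *Foxo1* (-0.53) and *Nanos3* (-0.53), and in *Dmrt1*, *Foxo1* and *Nanos3* at least 1 library went the other way. The 2 genes that rose, too few to read against the share over all genes, were the surface molecules *Itga6* (0.89) and *Cd9* (0.41).

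The 8 leading genes on the lower side were *Sox3*, *Tet3* (a 5-methylcytosine dioxygenase; log2 fold change -2.12), *Cdk6* (a partner of D-type cyclins; -2.54), *Eno1* (enolase; -0.92), *Igfbp6* (an IGF-binding protein; -1.56), *Sparc* (a matrix glycoprotein; -1.33), *Rin2* (a RAB5 exchange factor; -1.70) and *Phlda2* (an imprinted growth regulator; -2.29). *Tet3*, for example, stood at 22.6, 17.9, 19.1 and 15.6 CPM in *Gfra1*-detected cells of control 1 and 2 and *Sox17*-cKO 1 and 2, and at 75.2, 49.1, 100.3 and 110.1 CPM in *Gfra1*-undetected cells.

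Of 9 tested differentiation genes, *Kit* (-1.70 ± 0.311), *Crabp1* (an RA-binding protein; -0.80), *Sohlh1* (-0.62) and the DNA methyltransferase gene *Dnmt3b* (-0.70) were lower in *Gfra1*-detected Aundiff, and *Uhrf1*, the cofactor of maintenance methylation, was higher (0.57). None of 7 meiotic genes passed the threshold of edgeR's quasi-likelihood test, although 1 did at an unadjusted p below 0.05. Of 11 tested genes of the germ line small RNA pathway, 4 were lower, namely *Piwil4* (-1.03), *Pld6* (-1.03), *Mov10l1* (-0.36) and *Tdrd1* (-0.36), with 1 library against the others in *Pld6* (control 2) and *Tdrd1* (*Sox17*-cKO 1). In the cell cycle list 2 of 17 genes were higher (*Cdkn2d* and, except in *Sox17*-cKO 2, *Mcm3*) and 1 was lower (*Cdkn1b*, the p27 inhibitor, -1.20), with 6.8% higher and 4.89% lower over all genes tested. A single gene in a list of this size is near that background and says nothing about the list. Among 8 receptor genes, *Igf1r* was higher (0.39 ± 0.101) and *Znrf3*, a negative regulator of WNT receptors, lower (-1.47). Of 8 immediate early and heat shock genes, *Fos* (0.75), *Ier2* (0.77, with *Sox17*-cKO 1 level) and *Dnajb1* (0.49) were higher. After thinning to 3000 UMIs per cell the log2 fold changes of *Igf1r* and *Sohlh1* turned, to -0.39 and 0.080.

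Somatic RNA moved with this split. The Sertoli and interstitial markers made up 0.045%, 0.046%, 0.046% and 0.035% of the UMIs of *Gfra1*-detected cells in control 1 and 2 and *Sox17*-cKO 1 and 2, and 0.083%, 0.051%, 0.068% and 0.105% in *Gfra1*-undetected cells. Accordingly, 4 of 5 tested Sertoli genes (*Clu*, *Inha*, *Cst12* and, except in control 2, *Aard*) were lower in *Gfra1*-detected cells, against 4.89% over all genes. So were 3 of 4 interstitial genes, namely *Col1a1* (log2 fold change -1.47), *Col1a2* except in control 2, and *Col3a1* except in *Sox17*-cKO 1. Without the tenth of Aundiff that had the highest somatic share in each library, an alternative chosen after seeing the data, 789 of 6707 genes were called. Of these, 461 were higher, and 708 were among the 827 called with these cells kept. In the stem cell and GDNF response list 10 of 11 genes were higher. In the cells over 4500 genes, 289 *Gfra1*-detected against 636 undetected, 1590 of 11321 genes were called, 934 of them higher. There, 780 of the 827 genes had the same sign, 14 of 17 stem cell and GDNF response genes were higher and 0 were lower, but *Clu*, *Inha*, *Aard*, *Cst12* and *Sparc* had positive log2 fold changes of 0.11 to 0.45. With all 714 Aundiff, *Col1a2* had a log2 fold change of 0.21. The lower somatic genes and *Sparc* are therefore given as values of the 199 and 489 cells of this split only. When each cell was thinned to 3000 UMIs, 29 detected cells remained against 254, and 0 of 586 genes passed edgeR's quasi-likelihood test (55 at an unadjusted p below 0.05, lowest adjusted p = 0.053). Without control 1 the number of called genes was 529, and without *Sox17*-cKO 1 it was 455. No gene differed in its *Gfra1* split between the genotypes after adjustment (0 of 7076 by edgeR, 194 at an unadjusted p below 0.05).

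**Figure D3:**
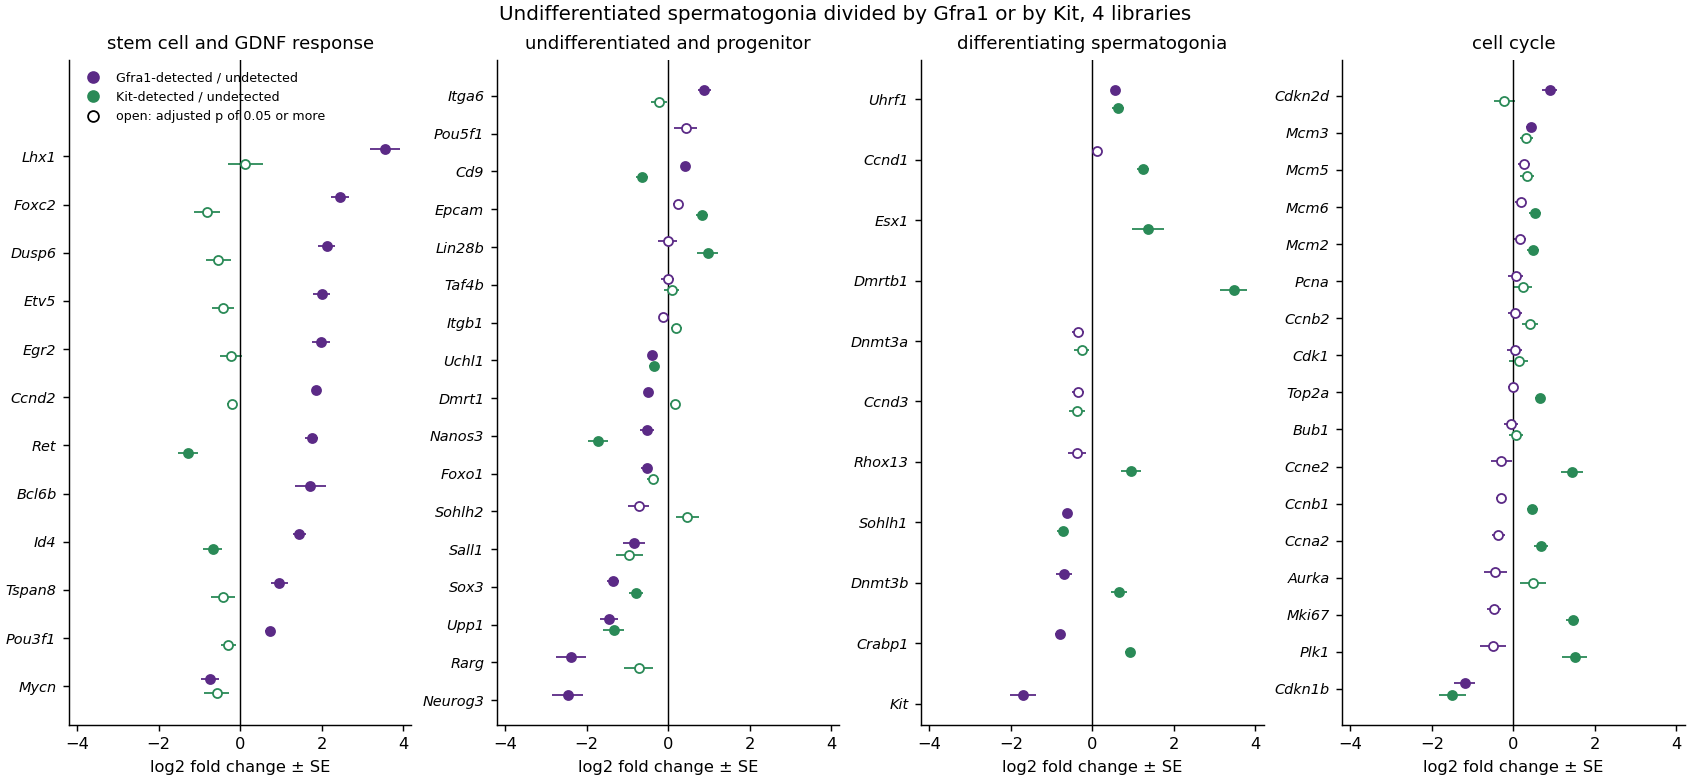
Log2 fold change with its SE (x axis) of the tested genes of 4 lists (panels) between *Gfra1*-detected and *Gfra1*-undetected Aundiff (purple) and between *Kit*-detected and *Kit*-undetected Aundiff (green), filled where edgeR's adjusted p was below 0.05. Stem cell and GDNF response genes lie to the right in the *Gfra1* split (median 1.80), and differentiation and cell cycle genes to the right in the *Kit* split (medians 0.79 and 0.47).

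The second split was by *Kit*, which the rule did not use. *Kit* was detected in 131 of the 714 Aundiff, namely 60 and 6 in control 1 and 2 and 42 and 23 in *Sox17*-cKO 1 and 2, and the other 583 had none. By the same test, 369 of 7104 genes (5.19%) were higher and 507 (7.14%) lower in *Kit*-detected Aundiff, with *Kit* itself left out of the counts, while DESeq2 called 260 genes. Of the 275 *Kit* UMIs, 168 lay in the 165 Aundiff with exactly 3 of the 7 rule genes, and the part of these cells in the split was not tested. With at least 4 of the 7 genes, an alternative chosen after seeing the data, 69 *Kit*-detected cells remained against 480, and 49 of 5855 genes were called, 48 of them among the 876. As fewer cells and genes entered there, the lower number of calls cannot be told apart from a loss of power. Of the 797 genes called in all Aundiff and tested there, 795 had the same sign. *Mki67* (1.13) and *Nanos3* (-1.11) were called there too, whereas *Ret* (-0.94, adjusted p = 0.071 by edgeR's quasi-likelihood test), *Id4* (-0.57, 0.37) and *Sohlh1* (-0.53, 0.051) were not, and *Dmrtb1* did not pass the filter on low counts. The 6 *Kit*-detected cells of control 2 had a median mitochondrial share of 37.7%, and without control 2 the number of called genes was 986. Below 10% mitochondrial UMIs, 746 genes were called, 619 of them among the 876.

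*Dmrtb1* (chromosome 4, 107676290 to 107684230, minus strand of GRCm38), a DM-domain factor of late spermatogonia, led the genes higher in *Kit*-detected cells. It was at 58.8 CPM in *Kit*-detected against 3.19 CPM in *Kit*-undetected cells of control 1, 72.7 against 12.1 in control 2, 57.3 against 4.95 in *Sox17*-cKO 1, and 33.7 against 5.40 in *Sox17*-cKO 2. The sides did not overlap, and the log2 fold change was 3.47 ± 0.335 (adjusted p = 8e-09). The 10 tested differentiation genes beside *Kit* had a median log2 fold change of 0.79 against -0.02 over all 7104 genes. Of these 10, 7 were higher (5.19% over all genes) and 1 lower (7.14% over all genes). They comprised *Ccnd1* (cyclin D1; 1.25), *Crabp1* (0.91), the X-linked homeobox genes *Esx1* (1.36) and *Rhox13* (0.95), *Dnmt3b* (0.66) and *Uhrf1* (0.62). By contrast, *Sohlh1* was lower in all 4 libraries (-0.73 ± 0.138), at 186 against 259.9, 247 against 376, 177 against 224, and 139 against 392 CPM.

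Several cell cycle genes were higher in the *Kit*-detected Aundiff. *Mki67* stood at 181 against 54.0 CPM in control 1, 87.2 against 36.2 in control 2, 183 against 61.2 in *Sox17*-cKO 1, and 75.7 against 43.2 in *Sox17*-cKO 2 (log2 fold change 1.46 ± 0.161, adjusted p = 1.1e-07). Of 17 tested genes of the list, 8 were higher (5.19% over all genes) and 1 lower (7.14% over all genes), with a median of 0.47. The higher genes included *Plk1* (a mitotic kinase; 1.503), *Ccne2* (cyclin E2; 1.43), *Ccna2* (cyclin A2; 0.69), *Top2a* (topoisomerase II; 0.65) and the replication licensing genes *Mcm6* (0.52) and *Mcm2* (0.48). A single lower gene in a list of this size is near the share over all genes. It was again *Cdkn1b* (-1.496 ± 0.327), which stood at 15.4 against 35.7, 0 against 6.04, 19.1 against 55.0, and 4.21 against 18.4 CPM. Control 2 went against the other libraries in *Plk1*, *Ccne2* and *Esx1*, with 1 UMI of each in its *Kit*-detected cells, and also in *Ccna2* (72.7 against 86.5 CPM) and *Ccnb1* (116 against 137 CPM).

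Aundiff genes were in part lower in the *Kit*-detected cells. *Nanos3* was at 22.4 against 68.5, 29.1 against 66.4, 27.3 against 81.6, and 16.8 against 71.3 CPM in control 1 and 2 and *Sox17*-cKO 1 and 2 (log2 fold change -1.72 ± 0.241). Of the 15 tested progenitor genes, *Nanos3*, *Upp1* (-1.34), *Sox3* (-0.79), *Cd9* (-0.64) and *Uchl1* (-0.34) were lower, and *Epcam* (0.83) and the let-7 regulator gene *Lin28b* (0.97) were higher. Only *Ret* (-1.28 ± 0.253) and *Id4* (-0.68 ± 0.228) of the 11 tested stem cell and GDNF response genes were lower, and none was higher. Over all genes tested, 5.19% were higher and 7.14% lower. *Ret* was at 26.6 against 59.8, 0 against 98.6, 30.0 against 79.8, and 42.1 against 57.3 CPM. *Ccnd2*, which marked the *Gfra1*-detected side, did not pass the threshold here (-0.20 ± 0.126, adjusted p = 0.32 by edgeR's quasi-likelihood test).

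The other leading genes of the *Kit*-detected side were *Cited1* (a transcriptional co-regulator; 1.65), *Hist1h2ap* (a histone H2A gene with near-identical copies, so that its reads could be shared; 1.21), *P3h3* (a collagen prolyl hydroxylase; 1.57) and *Kcnq1ot1* (an imprinted long non-coding RNA; 1.08). The 8 leading genes on the lower side were *Nanos3*, *Sdc4* (a heparan sulphate proteoglycan; -0.99), *Psmd7* (a proteasome subunit; -1.03), *Tubb5* (a tubulin; -0.92), *H2afy* (macroH2A; -0.89), *Dstn* (destrin; -0.86), *Pkm* (pyruvate kinase; -0.85) and *Msi2* (an RNA-binding protein; -0.91). Of the remaining lists, read against 5.19% higher and 7.14% lower over all genes tested, *Tgfbr1* (1.20) was the only receptor gene of 8 called higher, *Asz1* (-0.84) and *Ddx25* (-0.80) of 11 small RNA pathway genes fell, and *Egr1* (-0.55), *Hspa8* and, except in *Sox17*-cKO 2, *Junb* of 8 immediate early and heat shock genes fell. None of 7 meiotic, 5 RA pathway or 6 Sertoli genes passed edgeR's quasi-likelihood test, with 2, 1 and 0 of them at an unadjusted p below 0.05.

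Interstitial RNA was uneven in this split too. The Sertoli and interstitial markers made up 0.122%, 0.055%, 0.063% and 0.090% of the UMIs of *Kit*-detected Aundiff in control 1 and 2 and *Sox17*-cKO 1 and 2, and 0.066%, 0.048%, 0.074% and 0.075% in *Kit*-undetected Aundiff. *Col1a1*, *Col1a2* and *Col3a1* were higher in *Kit*-detected Aundiff, but *Col1a1* was at 186 against 46.8 CPM in control 1 and 24.5 against 65.5 CPM in *Sox17*-cKO 1. Without control 1, the log2 fold changes were -0.14 for *Col1a1* and -0.18 for *Col1a2*. Without the tenth of Aundiff highest in somatic markers, 874 genes were called. In the cells over 4500 genes (246 *Kit*-detected against 689), 3931 of 11503 genes were called, 2019 of them higher. There, 850 of the 876 genes called in Aundiff had the same sign, and 16 of 20 cell cycle genes were higher. Thinned to 3000 UMIs per cell, 5 of 1814 genes passed. The count was 438 without control 1, 245 without *Sox17*-cKO 1 and 535 without *Sox17*-cKO 2. The *Kit* split did not differ between genotypes in any of 7104 genes after adjustment by edgeR (157 at an unadjusted p below 0.05). Both splits use the same 4 libraries and largely the same cells, so they are not independent of each other.

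The share of Aundiff was then compared between genotypes. They made up 9.91% of germ cells in control 1 (exact 95% binomial interval 8.96% to 10.9%), 3.17% in control 2 (2.35% to 4.18%), 5.91% in *Sox17*-cKO 1 (5.14% to 6.76%) and 5.58% in *Sox17*-cKO 2 (4.58% to 6.72%). These intervals cover counting error only. Both *Sox17*-cKO libraries lay between the control libraries, and the difference of the means was -0.79 percentage points (exact permutation test over libraries, two-sided, p = 1, where 2 against 2 cannot give a p below 0.333). Of all cells within the limits of detected genes they were 5.88%, 0.928%, 3.56% and 1.86% in the same order.

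The share depended on which library and which cells were counted. Without control 1 the difference in the germ cell share was 2.57 percentage points, and without control 2 it was -4.16. Of the cells within the limits, the differences were 1.78 points without control 1 and 0.15 points without *Sox17*-cKO 2, against -0.70 points with all libraries. With no upper limit on detected genes, an alternative chosen after seeing the data, the germ cell shares were 11.3%, 9.41%, 8.37% and 8.83%, and both *Sox17*-cKO libraries lay below both control libraries (difference -1.76 points, exact permutation p = 0.333). Thinned to 3000 UMIs per cell, the shares were 6.46%, 1.43%, 4.80% and 4.01%, with the *Sox17*-cKO libraries again between the controls. A share of sequenced cells also moves with how many other cells were recovered.

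The composition of the Aundiff was compared on cells thinned to 3000 UMIs. *Gfra1* was detected in 15.8% of control 1, 16.7% of control 2, 9.14% of *Sox17*-cKO 1 and 20.8% of *Sox17*-cKO 2 Aundiff, and the *Sox17*-cKO libraries lay on both sides of the controls (difference -1.26 points). As *Gfra1* is a gene of the rule, this share is a description. In the cells with at least 3 of the other 6 rule genes, an alternative chosen after seeing the data, the shares were 14.1% and 14.9% in control and 6.84% and 20% in *Sox17*-cKO libraries (difference -1.08 points, exact permutation p = 1). Over all thinned Aundiff the difference was 4.57 points without *Sox17*-cKO 1 and 1.51 points below 10% mitochondrial UMIs. *Kit* was detected in 5.63% and 2.08% of the control and 13.2% and 9.90% of the *Sox17*-cKO Aundiff. Both *Sox17*-cKO libraries lay above both controls (difference 7.69 points, exact permutation p = 0.333, the smallest this design allows). In *Sox17*-cKO 1, however, the *Kit*-detected thinned cells had a median mitochondrial share of 32.0% against 7.88% in the undetected cells. Below 10% mitochondrial UMIs, an alternative chosen after seeing the data, the thinned *Kit* shares were 5.98% and 0% (0 of 26 cells, exact upper bound 13.2%) in control and 8.59% and 9.68% in *Sox17*-cKO Aundiff, and the shares without thinning, at 19.0% and 7.69% against 18.5% and 20.6%, overlapped (difference 6.22 points, exact permutation p = 0.667). In Aundiff with at least 4 of the 7 rule genes the thinned *Kit* shares were 3.16% and 0% (0 of 36 cells, exact upper bound 9.74%) in control and 5.59% and 7.41% in *Sox17*-cKO libraries. Without thinning, where detection also depends on depth, these Aundiff had shares of 11.5% and 5.56% in control and 13.1% and 18.3% in *Sox17*-cKO libraries. All Aundiff without thinning had 16.6% and 12.5% in control and 20.9% and 22.1% in *Sox17*-cKO libraries (exact permutation p = 0.333 in both settings). The control 2 share among all its thinned Aundiff rests on 1 of 48 cells, with an interval of 0.0527% to 11.1%. The *Kit* shares in the Sertoli and collagen gates were 0.924% to 2.14% and 1.52% to 3.30%. As these gates held only barcodes without *Ddx4* or *Dazl* UMIs, they may understate free RNA of germ cells. In the cells over 4500 genes, *Kit* was detected in 7.27% and 2.03% of the control and 6.38% and 5.59% of the *Sox17*-cKO cells, so that the groups overlapped.

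**Figure D4:**
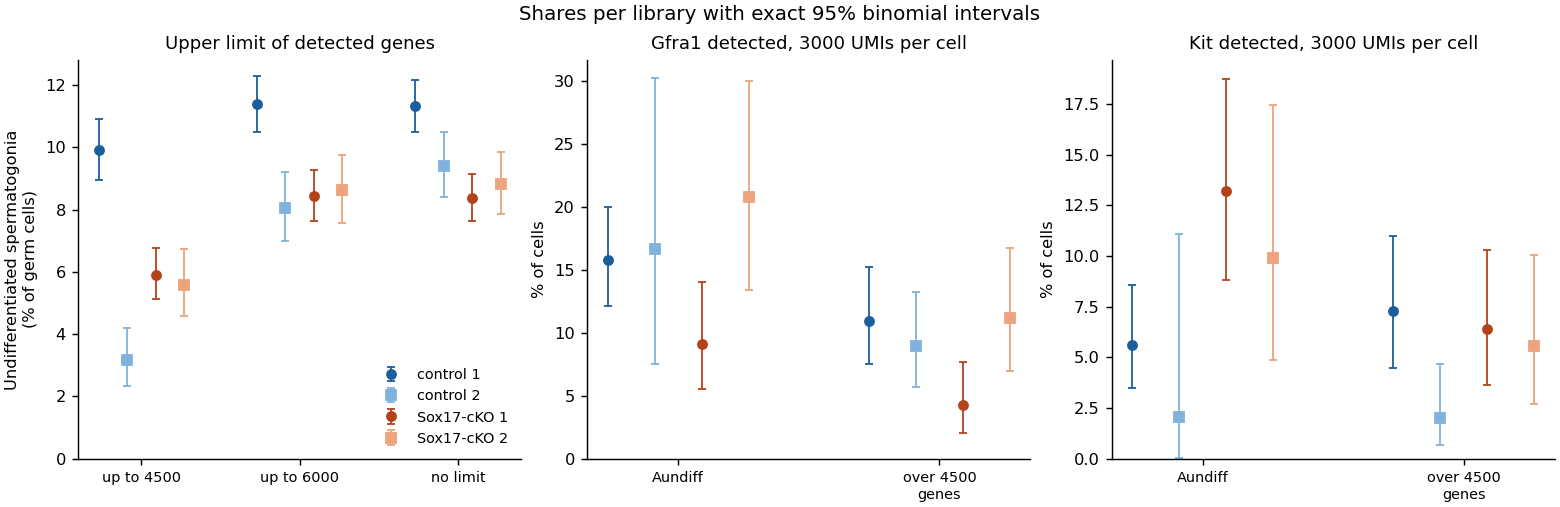
Share of Aundiff among germ cells under 3 upper limits of detected genes (left), and shares of Aundiff and of the larger cells with a *Gfra1* (middle) or a *Kit* UMI (right) after thinning to 3000 UMIs, in percent (y axes). Points are the 4 libraries and bars exact 95% binomial intervals. Within the limit of 4500 genes both *Sox17*-cKO libraries (5.91% and 5.58%) lie between the control libraries (9.91% and 3.17%), and the *Kit* share of Aundiff is higher in both *Sox17*-cKO libraries but not in the larger cells.

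Gene expression of the Aundiff was finally compared between *Sox17*-cKO and control libraries. The Aundiff came from the whole dissected piece, and their distance from the RT is not known. None of 9888 genes (0%) was called by edgeR's quasi-likelihood test after Benjamini-Hochberg adjustment, with 65 genes at an unadjusted p below 0.05 and a lowest adjusted p of 0.9998. DESeq2 also called 0 genes, with 17 at an unadjusted p below 0.05. In the cells over 4500 genes, 0 of 13269 were called, with 73 at an unadjusted p below 0.05. Leaving out a library gave 2 called genes without control 1, 6 without control 2, 17 without *Sox17*-cKO 1 and 5 without *Sox17*-cKO 2. With 2 libraries a group, of which control 2 had 48 cells, differences may have been missed. Variation that followed the library number also stayed in the error of this test. With the replicate number as a block, edgeR called 0 genes and gave 499 an unadjusted p below 0.05. The size of difference that could be detected is not given here.

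*Ccnd2*, for example, was at 303 and 468 CPM in the control and 270 and 566 CPM in the *Sox17*-cKO Aundiff. *Ret* was at 54.1 and 86.6 against 70.6 and 54.2 CPM, and *Etv5* at 30.5 and 45.9 against 26.2 and 81.7 CPM. In all 3 genes the groups overlapped. *Sohlh1* and *Uchl1* were higher in both libraries numbered 2, with 361 and 340 CPM of *Sohlh1* against 247 and 216 CPM in those numbered 1. The library number coincides with the Cell Ranger version in the file headers (6.0.2 for number 1, 6.1.2 for number 2).

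The lists are given by their signs. Of 16 tested stem cell and GDNF response genes, 9 had a positive log2 fold change in *Sox17*-cKO Aundiff (median 0.10), of 19 progenitor genes 10 (median 0.01), of 12 differentiation genes 4 (median -0.10), and of 20 cell cycle genes 11 (median 0.07), against 5008 of all 9888 genes (median 0.00). Of 8 meiotic genes 2 were positive, of 7 RA pathway genes 2, of 12 small RNA pathway genes 6, and of 11 immediate early and heat shock genes 3. None of these genes was called. All 14 tested receptor genes had positive values (median 0.26), of which 2 had an unadjusted p below 0.05 and 0 passed the adjustment. In the cells over 4500 genes, 9 of 21 tested receptor genes were positive (median -0.08).

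The 5 genes with the lowest unadjusted p all missed the threshold (adjusted p = 0.9998 each by edgeR's quasi-likelihood test). *Igf1*, which encodes the ligand insulin-like growth factor 1 and belongs to the interstitial markers, was at 1.44 and 7.07 CPM in control and 10.1 and 46.4 CPM in *Sox17*-cKO Aundiff (log2 fold change 3.41 ± 0.893). Without the filter on low counts *Igf1* was called, with 54 of its UMIs in *Sox17*-cKO 2. *Dst* (dystonin, a cytoskeletal linker) was at 67.3 and 53.0 against 153 and 94.6 CPM (0.95 ± 0.310). *Os9* (a lectin of protein quality control) was at 7.46 and 3.53 against 20.7 and 14.6 CPM (1.40 ± 0.469). *Gm8186*, a processed pseudogene whose reads could be shared with its parent gene, was at 102 and 91.9 against 66.0 and 25.8 CPM (-1.12 ± 0.379). *Wfdc1* was at 3.13 and 0 against 8.06 and 13.8 CPM (1.98 ± 0.683). As these genes were picked by their p, that the groups did not overlap in any of them is a description. In control 2, *Wfdc1* had 0 UMIs and *Os9* had 2. The interstitial markers other than *Igf1* summed to 163 and 364 CPM in control and 151 and 353 CPM in *Sox17*-cKO Aundiff, and were thus higher in both libraries numbered 2. Singly they differed, as *Dcn* was highest in *Sox17*-cKO 2, at 3.61 and 17.7 CPM in control and 3.53 and 41.3 CPM in *Sox17*-cKO Aundiff. *Acta2* was highest in control 2, at 17.8 and 79.5 against 9.07 and 67.9 CPM. The part of interstitial RNA in the *Igf1* value was not tested.

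**Figure D5:**
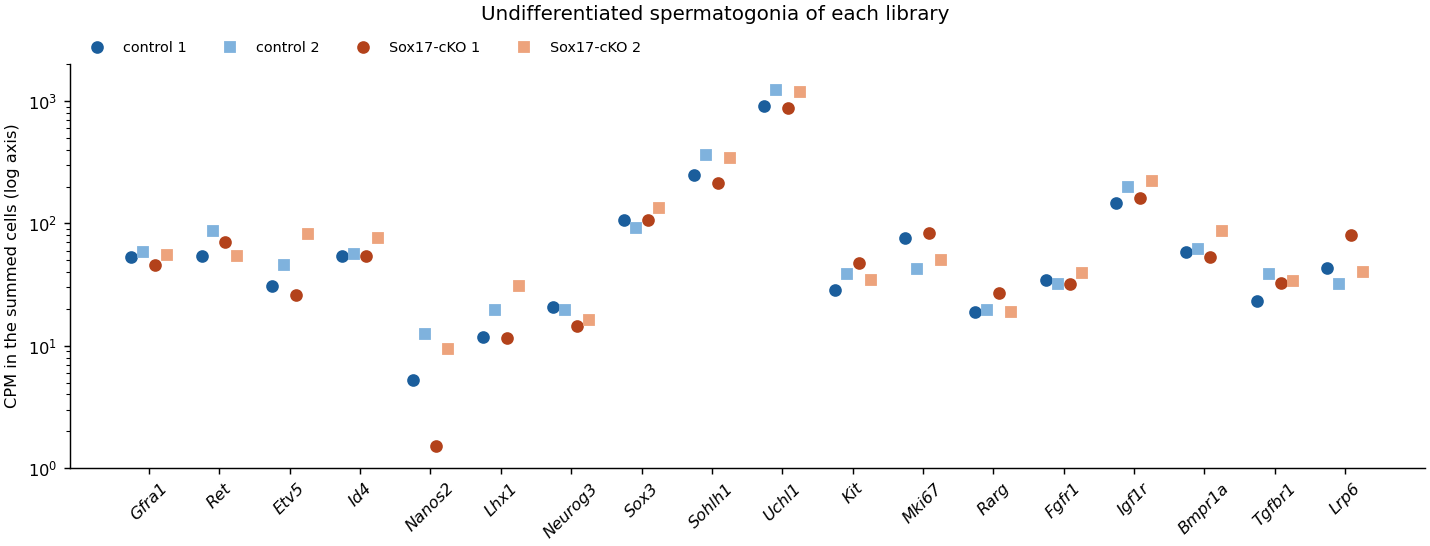
Level in CPM (y axis, log scale) of 18 genes (x axis) in the summed Aundiff of each library, with control in blue and *Sox17*-cKO in red. The groups overlap for *Ret* and *Etv5*, *Sohlh1* and *Uchl1* are higher in both libraries numbered 2, and none of 9888 genes passed an adjusted p of 0.05.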

How the data were processed

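Testicular cells of postnatal day 14 mice were profiled with the 10x Genomics 3' assay in 4 libraries, each of 3 pooled pups. The authors deposited UMI counts per gene and barcode, made with Cell Ranger 6.0.2 (libraries numbered 1) and 6.1.2 (numbered 2) per the file headers, with STAR and mm10 (GRCm38) named in the submitters' processing notes. Tables of the pooled libraries were not used here.

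The rule for Aundiff, the gene lists and the tests were chosen with earlier results of these data known. UMIs were summed over the Aundiff of each library, which is the replicate, and tested with edgeR 4.0.16 (quasi-likelihood, TMM, filterByExpr, two-sided, Benjamini-Hochberg over all genes tested, threshold 0.05) under R 4.3.3. The *Gfra1* and *Kit* splits had the library as a block. Rule genes, and *Kit* in its own split, stayed in the fits and the adjustment but were left out of the counts of tested and called genes. Shares were compared by exact permutation over libraries, with exact Clopper-Pearson intervals from scipy 1.17.1. The tests were also tried on simulated counts, with dispersions taken from the fits to these data, and the outcome is not given here. Gates for comparison held barcodes with 0 *Ddx4* and *Dazl* UMIs and either 4 of 6 Sertoli genes or 10 *Col1a1* plus *Col3a1* UMIs. No doublet caller was run, and no mitochondrial limit was applied to the Aundiff.

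Genes named were those of 15 gene lists and, per test, up to 8 higher and 8 lower genes with the smallest adjusted p and all libraries in 1 direction, or the 5 with the smallest unadjusted p where fewer than 5 passed. Single genes called only under an alternative of the genotype test were picked with their values known. The RA pathway list in the *Gfra1* split is not reported here. Alternatives were DESeq2 1.42.0, no filter on low counts, each library left out, thinning to 3000 UMIs, a limit of 10% mitochondrial UMIs, other limits of the rule and, chosen after seeing the data, the cells over 4500 genes and, for the splits, Aundiff without the tenth highest in somatic markers, and for *Kit* those with at least 4 of the 7 rule genes. Summed differences between replicates 2 and 1 correlated between the genotypes (r = 0.426 across 9898 genes, which are not independent), but a replicate number is given in the labels only for number 2, and it coincides with the Cell Ranger version.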

Additional observations from a re-analysis of the deposited data

Results flagged for a closer look

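Many cells that met the marker conditions lay beyond the upper limit of detected genes. In all, 935 cells with more than 4500 detected genes met every marker condition of the rule, 275 and 246 in control 1 and 2 and 235 and 179 in *Sox17*-cKO 1 and 2, which is 56.3% of the cells that met them. They were flagged because the comparisons of the 714 Aundiff do not use them. Their library medians averaged 22516 UMIs per cell against 11907 for Aundiff, and they held 38.9 ± 2.51 CPM of *Ret* against 66.4 ± 15.6 CPM (mean ± SD, n = 4 libraries). *Mki67* was at 142 ± 63.7 against 62.9 ± 19.9 CPM, and *Kit* at 27.5 ± 7.42 against 37.3 ± 7.91 CPM. Divided by *Gfra1*, Sertoli and interstitial markers made up 0.128% to 0.265% of the UMIs of their detected cells over the libraries. In their undetected cells these markers made up 0.148% to 0.336%. In the *Gfra1* split of Aundiff the shares were lower, at 0.035% to 0.046% and 0.051% to 0.105%. The share of doublets among the larger cells was not tested.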

How the results depend on the processing

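No gene was called between genotypes in 7 of 12 alternatives. Without the filter on low counts 2 genes were called (*Adamts5* and *Igf1*, with 58 and 54 of their UMIs in *Sox17*-cKO 2), and leaving out 1 library gave 2 to 17 genes, where the lone library of a group is assumed to vary like the others. With the replicate block, 0 genes were called (499 at an unadjusted p below 0.05, lowest adjusted p = 0.12), so the block changed no call. The 827 genes of the *Gfra1* split became 241 with DESeq2 (240 shared), 0 after thinning to 3000 UMIs and 1590 in the cells over 4500 genes, and 455 to 910 when 1 library was left out. The 876 genes of the *Kit* split became 260 with DESeq2 (all 260 shared), 5 after thinning, 49 with at least 4 of the 7 rule genes and 3931 in the cells over 4500 genes, and 245 to 986 when 1 library was left out. Thinning left few cells and genes to test. Leaving out 1 library moved the difference in the germ cell share from -4.16 to 2.57 points, in the share of cells within the limits from -3.18 to 1.78 (0.15 without *Sox17*-cKO 2), in the *Gfra1* share from -7.08 to 4.57 and in the *Kit* share from 5.92 to 9.47, and thinning gave 0.46 for the germ cell share. Below 10% mitochondrial UMIs, the *Gfra1* share difference was 1.51 points thinned and 2.07 without thinning. Apart from the cells over 4500 genes, the alternatives of the splits used largely the same cells. After thinning, 7 of the 62 named genes of the *Gfra1* split were tested, 5 kept their direction and 0 their call. Of the 46 named genes of the *Kit* split 25 were tested then, and 25 kept their direction and 0 their call. Over the named genes and all alternatives, 652 of 661 values in the *Gfra1* split and 513 of 519 in the *Kit* split kept their direction. In the *Gfra1* split the exceptions were *Aard* (0.11), *Clu* (0.40), *Cst12* (0.32), *Inha* (0.45) and *Sparc* (0.18) in the cells over 4500 genes, *Col1a2* with all Aundiff (0.21) and without the tenth highest in somatic markers (0.36), and *Igf1r* (-0.39) and *Sohlh1* (0.080) after thinning. In the *Kit* split they were *Col1a1* without the tenth highest in somatic markers (-0.41) and in the cells over 4500 genes (-0.059), *Col1a1* (-0.72) and *Col1a2* (-0.25) with at least 4 of the 7 rule genes, and, when 1 library was left out, *Col1a1* (-0.14 without control 1 to 1.18) and *Col1a2* (-0.18 without control 1 to 1.79). The causes were not tested.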

Other observations

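Aundiff genes were also found in germ cells with 2 or more *Stra8* UMIs. With every other condition as for Aundiff there were 376 such cells, and their pooled levels were 184 CPM of *Kit*, 14.03 CPM of *Ret* and 302 CPM of *Sohlh1*. A further 33 cells had at least 3 of the 7 rule genes but fewer than 2 UMIs of *Ddx4* plus *Dazl*. In the genotype test without control 1, the 2 genes called were *Cst12*, a Sertoli marker, and *Tmem184a*.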
